A study of Mus musculus with 2 samples.

Results

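The 41 genes described here encode the antioxidant enzymes of the mouse cell and the enzymes that supply them with NADPH. They were chosen by symbol out of 55536 annotated genes and matched 42 gene identifiers, because Nnt has 2. Not all are enzymes: Nfe2l2 and Keap1 are regulators, and Selenop carries selenium in blood. Total RNA was sequenced from adrenal glands of male mice of strain B6CASTF1/J, a first-generation cross of C57BL/6J with the wild-derived CAST/EiJ, aged 25 days, with no treatment named. The 2 libraries form 1 group and were built from 300 ng of RNA each, with ERCC spike-ins (synthetic RNAs of known amount) added. The biosample labels give animal 4 for replicate 2 and animal 3 for replicate 1, but the library labels give animal 3 for both, and the donor label is shared. Differences between the libraries may therefore be technical. With 1 library on each side no test can be made, and no p-value is given.

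Superoxide dismutases turn superoxide into hydrogen peroxide, and catalase, glutathione peroxidases and peroxiredoxins remove the peroxide. Glutathione and thioredoxin supply the peroxidases with electrons, and both are recharged with NADPH. In the adrenal cortex the mitochondrial cytochromes P450 that make steroids also draw on NADPH and leak electrons to oxygen, and loss of the mitochondrial NADPH source NNT causes glucocorticoid deficiency in humans.

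Of the 41 genes, 8 encode selenoproteins, which carry selenocysteine at a TGA codon that would otherwise end the protein. The codon is shown for each because Selenop, Msrb1 and Gpx1, which differ widely between the libraries, are among them. Each line reads 5′ to 3′ on the coding strand, from mm10 and the annotation M21 that the files used, with the selenocysteine codon in capitals. In Txnrd1 and Txnrd2 the line ends with the last codon before the stop.
Gpx1, chr9:108339451-108339453, plus strand, codon 47 of 201: gtcgcgtctctcTGAggcaccacgatccgg
Gpx3, chr11:54907256-54907258, plus strand, codon 73 of 226: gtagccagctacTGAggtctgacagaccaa
Gpx4, chr10:80054737-80054739, plus strand, codon 73 of 197: gtggcctcgcaaTGAggcaaaactgacgta
Txnrd1, chr10:82896037-82896039, plus strand, codon 498 of 499: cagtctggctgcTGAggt
Txnrd2, chr16:18477772-18477774, plus strand, codon 526 of 527: gtgactggttgcTGAggc
Selenop, chr15:3274848-3274850, plus strand, codon 59 of 380: cttcaagccagcTGAtacttgtgtcttctg
Selenow, chr7:15920464-15920466, minus strand, codon 13 of 88: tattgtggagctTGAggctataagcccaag
Msrb1, chr17:24740158-24740160, plus strand, codon 95 of 116: caatcaagattcTGAatatttagcagctca
Selenop alone has more than 1 such codon, 10 in all, and the line shows the earliest. Gpx7 and Gpx8 are the glutathione peroxidases among the 41 without selenocysteine, and a cysteine codon (in capitals) stands at the same place. It was found by aligning the residues around the Gpx3 codon, with 7 of 9 residues identical in Gpx7 and 5 of 9 in Gpx8.
Gpx7, chromosome 4, codon 56 of 186: gtagctagcgaaTGTggcttcacagaccag
Gpx8, chromosome 13, codon 79 of 209: gtggctagtgacTGCcgcttcacagacaag

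The libraries held 35156690 expected counts in replicate 2 and 35283841 in replicate 1. They stood apart in transcripts of other tissues. Each of 8 liver markers was over 2-fold higher in replicate 2, and their summed level was 19690 TPM in replicate 2 against 26.9 TPM in replicate 1. TPM is a level scaled by transcript length and by the total of its library. All 8 skeletal muscle markers were at least 2-fold lower in replicate 2, with sums of 1.94 TPM in replicate 2 against 1335 TPM in replicate 1, and Tnni2 had 0 counts in replicate 2. Adrenal markers were abundant in both libraries: the 8 cortex markers, all detected, summed to 7143 TPM in replicate 2 against 13080 TPM in replicate 1, and the 8 chromaffin markers to 1255 TPM in replicate 2 against 1839 TPM in replicate 1. The kidney, which lies next to the gland, left almost nothing, with sums of 0.68 TPM in replicate 2 against 0.59 TPM in replicate 1, and 4 of its 8 markers had 0 counts in each library. Fat transcripts were present in both libraries. The 7 white adipocyte markers, all detected, summed to 1955 TPM in replicate 2 against 2335 TPM in replicate 1. These sums were above the chromaffin sum of the same library. The 5 brown adipocyte markers, all detected, summed to 935 TPM in replicate 2 against 1365 TPM in replicate 1. The part of fat in the levels of the genes described here was not tested. In whole tissue, fewer cells of a type and less RNA per cell cannot be told apart.

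**Figure D1:**
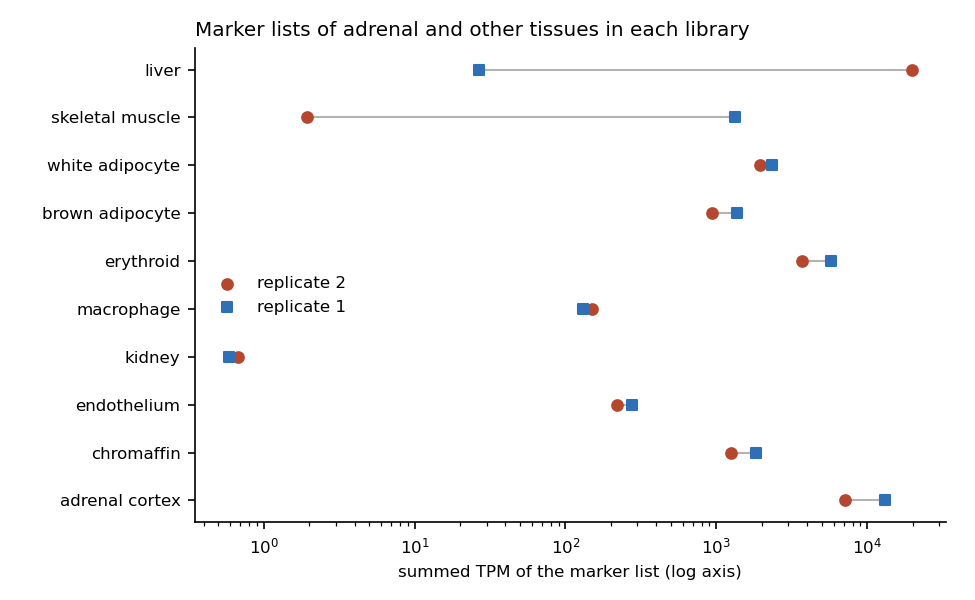
Summed TPM of each marker list (log axis) in replicate 2 (circles) and replicate 1 (squares). The liver list stands at 19690 TPM in replicate 2 against 26.9 TPM in replicate 1, the muscle list at 1.94 TPM in replicate 2 against 1335 TPM in replicate 1, and the cortex and chromaffin lists lie within 2-fold.

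All 41 genes were detected, meaning that both libraries gave them 1 TPM or more. Of all annotated genes 23.6% passed the same rule, and of 22015 nuclear protein-coding genes 54.1%. By mean TPM, 25 of the 41 lay at or above the 90th percentile of nuclear protein-coding genes, and 15 had a mean of at least 100 TPM. Gpx7, Me3 and Nqo1 were under 10 TPM, and Nqo1 alone was under the median gene, at percentile 49.1. Together the 41 genes made up 0.531% of all TPM in replicate 2 against 0.407% in replicate 1, a mean of 0.469 ± 0.0876% (SD, n = 2).

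**Figure D2:**
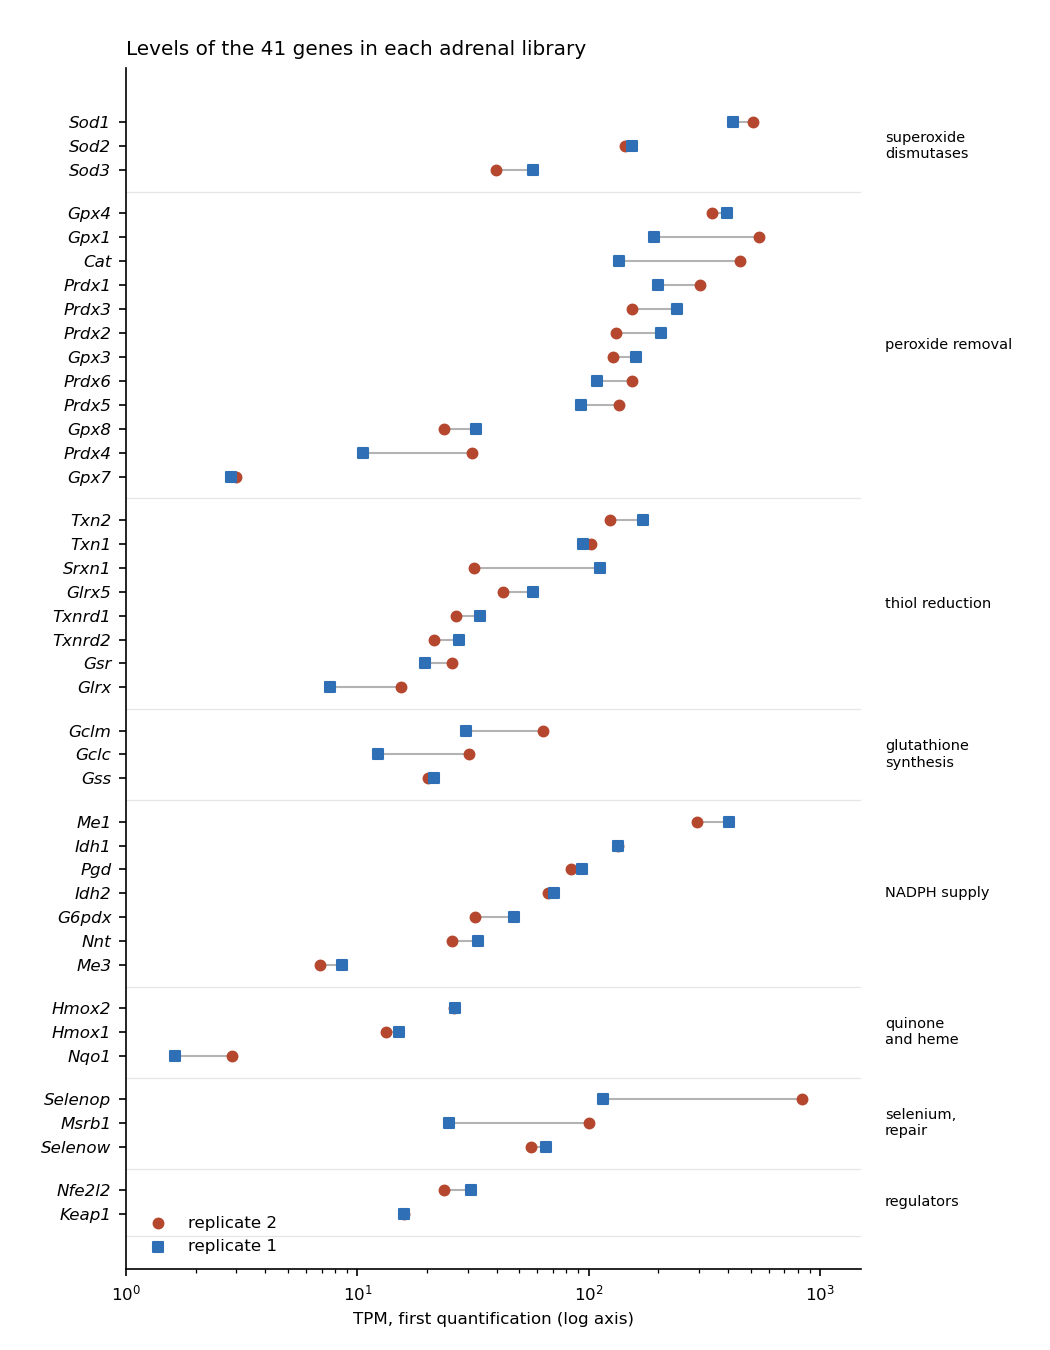
TPM of each of the 41 genes (log axis) in replicate 2 (circles) and replicate 1 (squares), grouped by role and ordered by mean level within it. Selenop has the widest gap, 832 TPM in replicate 2 against 115 TPM in replicate 1, and each NADPH supplier lies within 2-fold.

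Between the libraries, 9 of the 41 genes (22% of them) were at least 2-fold higher in replicate 2, beside 10.2% of the 19801 genes with at least 10 counts. The 9 were Selenop, Msrb1, Cat, Prdx4, Gpx1, Gclc, Gclm, Glrx and Nqo1. Srxn1 was the 1 gene at least 2-fold lower in replicate 2 (2.44% of the 41), beside 3.93% of all tested genes. Among the 14096 tested genes with a mean of at least 1 TPM the shares were 8.23% higher and 1.58% lower. The other 31 genes were within 2-fold. The median log2 ratio, replicate 2 over replicate 1, was 0.16 for the 41 genes and -0.01 for all tested genes. These ratios use library sizes scaled by TMM, a trimmed mean of gene ratios, so they need not match the ratio of 2 TPM values: Idh1, nearly equal in TPM, stood at a log2 ratio of 0.25. Scaling by total counts moves every log2 ratio by -0.23 and scaling by spike-ins moves it by -0.36, and either turns the median of the 41 genes below 0, to -0.07 and -0.20. With either scaling 7 of the 9 were called, without Glrx and Nqo1, and Srxn1 was called lower. The shares of all tested genes were then 8.62% higher and 5.66% lower with total counts, and 7.88% and 7.29% with spike-ins. The higher counts lay in the library with the liver transcripts, and the part of these transcripts in the result was not tested.

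**Figure D3:**
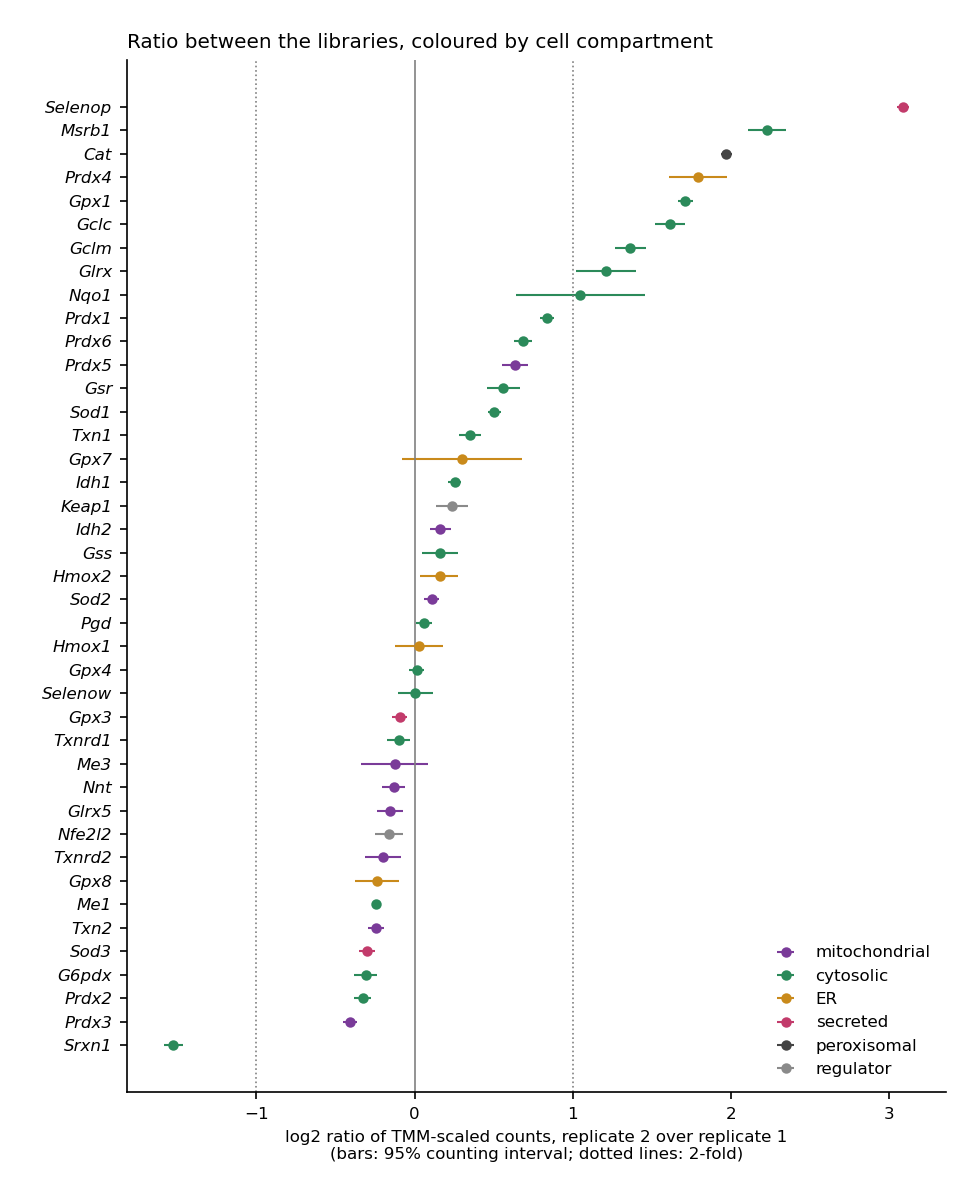
Log2 ratio of TMM-scaled counts, replicate 2 over replicate 1, for each of the 41 genes in order, coloured by compartment, with 95% counting intervals as bars and dotted lines at 2-fold. Selenop is highest at 3.09, Srxn1 is lowest at -1.53, and all 9 mitochondrial genes lie between -0.41 and 0.64.

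Differences of 2-fold occurred at low and high levels. The genes called higher in replicate 2 ranged from Nqo1, with a mean of 2.26 TPM, to Selenop, with a mean of 473 TPM. The counting intervals excluded 0 for 36 of the 41 genes, and the lowest count of any of them in a library was 81. These 95% exact Clopper-Pearson intervals cover counting error only and say nothing of the spread between animals.

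**Figure D4:**
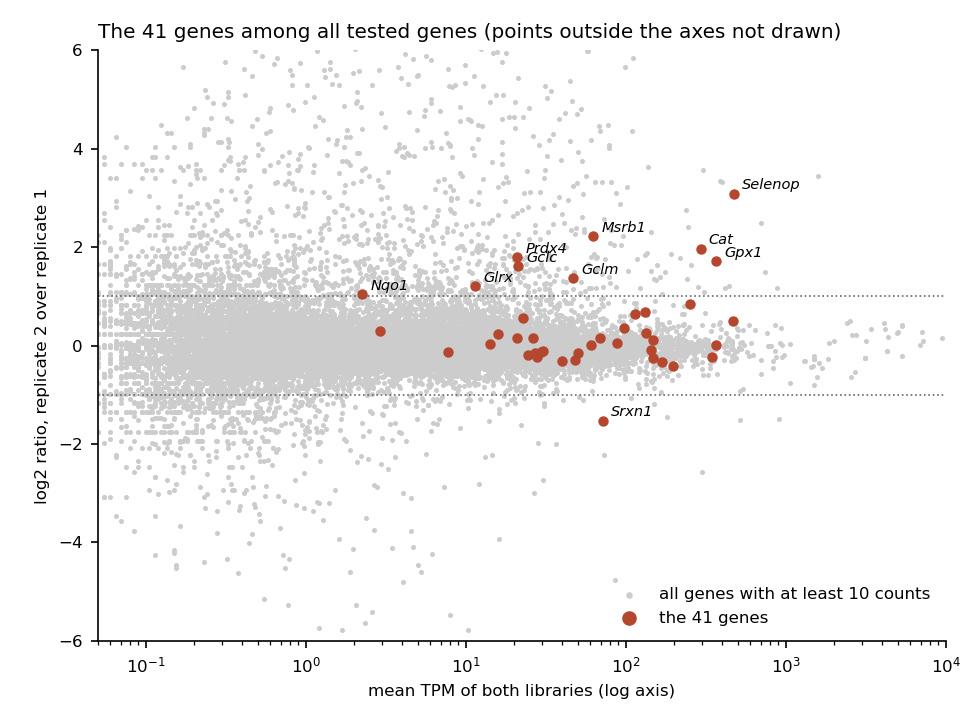
Log2 ratio, replicate 2 over replicate 1, against the mean TPM of both libraries (log axis) for all genes with at least 10 counts (small points) and for the 41 genes (large points), with dotted lines at 2-fold. Genes that differ at least 2-fold are named, from Nqo1 at a mean of 2.26 TPM to Selenop at 473 TPM.

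All 3 superoxide dismutases differed by less than 2-fold between the libraries, and Sod1 had the highest level of the 41 in replicate 1. Sod1, the copper-zinc enzyme of the cytosol (ENSMUSG00000022982.10, mm10 chr16:90220754-90226329), was at 514 TPM in replicate 2 against 419 TPM in replicate 1. Sod2, the manganese enzyme of the mitochondrial matrix, was at 143 TPM in replicate 2 against 154 TPM in replicate 1. Sod3, the secreted enzyme, was at 39.7 TPM in replicate 2 against 57.3 TPM in replicate 1. Their order was the same in both libraries, with gaps wider than the spread: Sod1 averaged 467 ± 66.6 TPM, Sod2 149 ± 7.83 TPM and Sod3 48.5 ± 12.4 TPM (SD, n = 2).

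The 12 peroxide-removing genes had the highest median percentile of any role, 98.5. Of the 12, 3 (Cat, Gpx1 and Prdx4) were at least 2-fold higher in replicate 2, beside 10.2% of all tested genes. Gpx4, which reduces lipid peroxides in membranes (ENSMUSG00000075706.10, mm10 chr10:80047166-80056439), was at 340.0 TPM in replicate 2 against 396 TPM in replicate 1. Gpx1, the main glutathione peroxidase of the cytosol (ENSMUSG00000063856.7, mm10 chr9:108338903-108340343), was at 544 TPM in replicate 2 against 190.3 TPM in replicate 1. So Gpx4 and Gpx1 had nearly the same mean, 368 and 367 TPM (n = 2), but opposite order in the libraries. Gpx1 was 3.28-fold higher in replicate 2 (95% counting interval 3.17 to 3.39).

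Cat, catalase of the peroxisomes (ENSMUSG00000027187.10, mm10 chr2:103453849-103485160), was at 452 TPM in replicate 2 against 135 TPM in replicate 1, a 3.93-fold difference (interval 3.84 to 4.02). Prdx4, the peroxiredoxin of the endoplasmic reticulum (ENSMUSG00000025289.15, mm10 chrX:155323918-155340754), was at 31.4 TPM in replicate 2 against 10.6 TPM in replicate 1, a 3.46-fold difference (interval 3.05 to 3.94). Cat and Prdx4, like Gpx1, were higher in the library with the liver transcripts, whose part was not tested. The remaining peroxiredoxins were within 2-fold. Prdx1 of the cytosol was at 303 TPM in replicate 2 against 198 TPM in replicate 1, and Prdx2, of the same compartment, at 131 TPM in replicate 2 against 205 TPM in replicate 1. Prdx3, the mitochondrial peroxiredoxin, was at 154 TPM in replicate 2 against 240 TPM in replicate 1. The log2 ratios were 0.84 for Prdx1, -0.33 for Prdx2 and -0.41 for Prdx3, and each kept its sign with total counts and spike-ins. Prdx5 averaged 114 ± 30.1 TPM and Prdx6, a peroxiredoxin with a single active cysteine, 131 ± 32.6 TPM (SD, n = 2).

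The secreted and endoplasmic glutathione peroxidases differed little between the libraries. Gpx3, the plasma enzyme, was at 127 TPM in replicate 2 against 159 TPM in replicate 1. Gpx8 was at 23.6 TPM in replicate 2 against 32.6 TPM in replicate 1. Gpx7, with the cysteine codon shown above, had 121 counts in replicate 2 and 116 counts in replicate 1, and at 3.00 TPM in replicate 2 against 2.85 TPM in replicate 1 it was the lowest of the role.

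Of the 8 thiol-reducing genes, 1 was at least 2-fold higher and 1 lower in replicate 2, beside 10.2% and 3.93% of all tested genes. The median log2 ratio of the 8 was -0.13. Txn2, mitochondrial thioredoxin (ENSMUSG00000005354.16, mm10 chr15:77915047-77929006), had the highest mean of the role, with 124 TPM in replicate 2 against 172 TPM in replicate 1. Txn1, cytosolic thioredoxin, was at 102 TPM in replicate 2 against 93.9 TPM in replicate 1. Their reductases had lower levels: in replicate 2 Txnrd1 was at 26.6 TPM and Txnrd2 at 21.4 TPM, against 33.8 TPM and 27.4 TPM in replicate 1. Gsr, which recharges glutathione, was at 25.7 TPM in replicate 2 against 19.7 TPM in replicate 1, within 2-fold like the reductases.

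Srxn1, sulfiredoxin, repairs peroxiredoxins that have been over-oxidised, and in mouse adrenal cortex it is known for restoring Prdx3. It (ENSMUSG00000032802.8, mm10 chr2:152105516-152111376) was at 31.8 TPM in replicate 2 against 111 TPM in replicate 1, from 2914 counts in replicate 2 against 9893 counts in replicate 1. Srxn1 was thus 2.88-fold lower in replicate 2 (95% counting interval 2.76 to 3.00). Its substrate Prdx3 was lower in the same library, by less than 2-fold, under TMM, total counts and spike-ins alike. Beside this stand the muscle markers and the adrenal cortex markers, both lower in replicate 2, the cortex markers with a median log2 ratio of -0.66 over 8 genes, none of them 2-fold different with TMM; their part in this result was not tested. Glrx, cytosolic glutaredoxin (ENSMUSG00000021591.8, mm10 chr13:75839868-75850154), differed the other way, with 15.4 TPM in replicate 2 against 7.59 TPM in replicate 1. Its 2.32-fold difference (interval 2.03 to 2.64) was under 2-fold with total counts, at a log2 ratio of 0.98, and with spike-ins, at 0.85. Glrx5, the mitochondrial glutaredoxin of iron-sulfur cluster assembly, was at 42.8 TPM in replicate 2 against 57.6 TPM in replicate 1.

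Of 16 other genes of thiol redox control, 13 were detected and 13 had enough counts for a ratio. Msra, methionine sulfoxide reductase A, was the 1 at least 2-fold higher in replicate 2, with 26.2 TPM in replicate 2 against 11.6 TPM in replicate 1, and 0 were lower. Of all tested genes 10.2% were called higher and 3.93% lower. The median log2 ratio of the list was -0.09. Its most abundant genes were Txnip, which binds and inhibits thioredoxin, with 201.9 TPM in replicate 2 against 328 TPM in replicate 1, and Park7, with 100.3 TPM in replicate 2 against 93.0 TPM in replicate 1. Gpx5 had 0 counts in both libraries, and Gpx2 and Gpx6 had 2 counts each in replicate 2 and 0 in replicate 1.

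Each subunit of glutamate-cysteine ligase, the rate-limiting step of glutathione synthesis, was at least 2-fold higher in replicate 2. The catalytic subunit Gclc (ENSMUSG00000032350.9, mm10 chr9:77754535-77794485) was at 30.3 TPM in replicate 2 against 12.3 TPM in replicate 1, a 3.06-fold difference (95% counting interval 2.87 to 3.27). The modifier subunit Gclm (ENSMUSG00000028124.15, mm10 chr3:122245557-122270732) was at 63.6 TPM in replicate 2 against 29.6 TPM in replicate 1, a 2.57-fold difference (interval 2.40 to 2.76). Gss, glutathione synthetase, which adds glycine in the next step, did not share this difference, at 20.2 TPM in replicate 2 against 21.4 TPM in replicate 1. The modifier subunit had the higher level per length in both libraries. The liver markers were also higher in replicate 2, with a median log2 ratio of 9.79 over 8 genes. Their part in the levels of Gclc and Gclm was not tested.

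All 7 NADPH suppliers were within 2-fold between the libraries, with log2 ratios between -0.31 and 0.25. Their summed level was 643 TPM in replicate 2 against 790.1 TPM in replicate 1. Me1, cytosolic malic enzyme (ENSMUSG00000032418.15, mm10 chr9:86581371-86695953), led with 294 TPM in replicate 2 against 403 TPM in replicate 1, an average of 348 ± 77.5 TPM (SD, n = 2). Idh1, cytosolic isocitrate dehydrogenase, followed with 134 TPM in replicate 2 against 133 TPM in replicate 1. Pgd, of the pentose phosphate pathway, came next with 83.8 TPM in replicate 2 against 93.5 TPM in replicate 1. G6pdx, the entry enzyme of that pathway, was below Idh2 in both libraries, at 32.1 TPM in replicate 2 against 47.7 TPM in replicate 1. Within the pathway the entry enzyme had the lower level in both libraries.

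The mitochondrial suppliers were lower than Me1 and Idh1. Idh2 was at 66.7 TPM in replicate 2 against 70.9 TPM in replicate 1. Nnt, which uses the proton gradient to make NADPH (ENSMUSG00000025453.18 and ENSMUSG00000116207.1, mm10 chr13:119335448-119408997), was at 25.7 TPM in replicate 2 against 33.1 TPM in replicate 1. Me3, mitochondrial malic enzyme, had 331 counts in replicate 2 and 426 counts in replicate 1, which is 6.89 TPM in replicate 2 against 8.54 TPM in replicate 1. The level of Nnt depends on its gene models. The single model of the second identifier, Nnt-206 with 17 exons and 3339 bases, is wholly contained in Nnt-202 of the first, with 17 exons and 3464 bases, so every read from Nnt-206 also matches Nnt-202. The second identifier took 7.39% of Nnt TPM in replicate 2 and 14.6% in replicate 1 in the first of the authors' quantifications, but 60.6% in replicate 2 and 69.8% in replicate 1 in the second. Its posterior SD was 218 counts for 209 counts in replicate 2 and 254 counts for 534 counts in replicate 1. Nnt was the 1 gene of the 41 whose posterior SD passed 1% of its count. For this reason only the sum over both identifiers is given. C57BL/6J carries a deletion within Nnt, and mm10 is built on that strain, so exons absent from it could not be counted.

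Of 15 other genes of NADPH supply, 13 were detected, and 2 of the 14 with enough counts were at least 2-fold higher in replicate 2, beside 10.2% of all tested genes. They were Aldh1l1, a folate enzyme, at 153 TPM in replicate 2 against 40.1 TPM in replicate 1, and Mthfd1, another, at 33.3 TPM in replicate 2 against 13.2 TPM in replicate 1. Of the other folate genes in the list, Mthfd2 stood at a log2 ratio of -0.56, Aldh1l2 at -0.55 and Mthfd2l at -0.04. Aldh1l1 and Mthfd1 were higher in the library with the liver transcripts, whose part was not tested. The most abundant were Tkt, transketolase of the pentose phosphate pathway, with 425 TPM in replicate 2 against 446 TPM in replicate 1, and Taldo1, transaldolase, with 169.9 TPM in replicate 2 against 218 TPM in replicate 1. Among 5 genes of the mitochondrial steroid pathway that spend NADPH, 0 differed 2-fold with TMM scaling. That scaling called 3.93% of all tested genes lower. Scaling by total counts called 1 of the 5 lower, beside 5.66% of all tested genes. When spike-ins set the scale, 2 of the 5 were lower, beside 7.29% of all tested genes. The median log2 ratio of the 5 was -0.64 under TMM. Cyp11a1, which cleaves the side chain of cholesterol, was at 1113 TPM in replicate 2 against 2028 TPM in replicate 1, and Cyp11b1, which completes corticosterone, at 715 TPM in replicate 2 against 1423 TPM in replicate 1. The median of the 7 suppliers under the same scaling was -0.13.

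Of the quinone and heme enzymes, Hmox2, the constitutive heme oxygenase (ENSMUSG00000004070.15, mm10 chr16:4726361-4766742), was at 26.1 TPM in replicate 2 against 26.5 TPM in replicate 1. The inducible Hmox1 was at 13.3 TPM in replicate 2 against 15.1 TPM in replicate 1. Nqo1, a quinone reductase and a standard readout of Nfe2l2 activity (ENSMUSG00000003849.8, mm10 chr8:107388225-107403206), had 142 counts in replicate 2 and 81 counts in replicate 1, which is 2.88 TPM in replicate 2 against 1.63 TPM in replicate 1. Its 2.07-fold difference had an interval of 1.56 to 2.75, which includes differences under 2-fold, and it was under 2-fold with total counts, at a log2 ratio of 0.82, and with spike-ins, at 0.69.

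Selenop, which carries selenium from the liver to other tissues, had the largest difference of the 41. It (ENSMUSG00000064373.12, mm10 chr15:3268547-3280508) was at 832 TPM in replicate 2 against 115 TPM in replicate 1, from 53698 counts in replicate 2 against 7438 counts in replicate 1, an 8.52-fold difference (95% counting interval 8.31 to 8.73). Selenop thus ranked highest of the 41 in replicate 2 and not in replicate 1. Msrb1, a selenoprotein that repairs oxidised methionine (ENSMUSG00000075705.12, mm10 chr17:24736642-24742778), was at 99.97 TPM in replicate 2 against 24.8 TPM in replicate 1, a 4.69-fold difference (interval 4.32 to 5.10). Selenow, a small thioredoxin-like selenoprotein, was at 56.0 TPM in replicate 2 against 65.4 TPM in replicate 1. The liver markers were also higher in replicate 2, and their part in the levels of Selenop and Msrb1 was not tested.

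Of the 8 selenocysteine genes, 3 passed 2-fold as higher in replicate 2 (Selenop, Msrb1 and Gpx1), and the median log2 ratio was 0.01. Of the other 33 genes, 6 were higher and 1 lower, with a median of 0.16. The share of all tested genes called higher was 10.2%, and the difference between the 8 and the 33 was not tested. The summed level of the 8 was 2047 TPM in replicate 2 against 1012 TPM in replicate 1, while that of the 33 was 3264 TPM in replicate 2 against 3061 TPM in replicate 1. The genes that make selenoproteins were also read. Of 8, all detected, Sephs2, which makes the selenium donor, was at 132 TPM in replicate 2 against 30.2 TPM in replicate 1. Scly, which frees selenium from selenocysteine, was at 19.1 TPM in replicate 2 against 5.24 TPM in replicate 1. Those were the 2 at least 2-fold higher in replicate 2, 0 were lower, and the median log2 ratio was 0.40.

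Of a list of 12 other selenoprotein genes 10 were detected. This list is not complete, as the selenoprotein genes Sephs2, Txnrd3 and Gpx2 were counted in the lists above. Its 2 most abundant, Selenof and Selenot, were at 93.0 and 38.6 TPM in replicate 2 and at 97.8 and 42.7 TPM in replicate 1. The list had a median log2 ratio of 0.12, with 1 gene at least 2-fold higher and 1 lower, beside 10.2% and 3.93% of all tested genes. Dio1, the deiodinase typical of liver and kidney, had 899 counts in replicate 2 and 0 in replicate 1. Its 95% counting interval ran from 286.9-fold upward. With a floor of 3 counts set for replicate 1, the ratio was 353.5-fold. Dio2, the deiodinase of brown fat and brain, was at 1.02 TPM in replicate 2 against 3.97 TPM in replicate 1. Beside these values stand the liver markers, higher in replicate 2. The 8 skeletal muscle markers, all at least 2-fold lower in replicate 2, summed to 1.94 TPM in replicate 2 against 1335 TPM in replicate 1. The 5 brown adipocyte markers summed to 935 TPM in replicate 2 against 1365 TPM in replicate 1. The brown adipocyte list had a median log2 ratio of -0.31, with 0 genes at least 2-fold lower. Elovl3, 1 of the 5, was higher, at 35.8 TPM in replicate 2 against 6.33 TPM in replicate 1. The part of any of these lists in the levels of Dio1 and Dio2 was not tested.

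The regulators were within 2-fold between the libraries. Nfe2l2 encodes Nrf2, the transcription factor that switches on many of these genes through the antioxidant response element. It (ENSMUSG00000015839.6, mm10 chr2:75675513-75704641) was at 23.7 TPM in replicate 2 against 30.9 TPM in replicate 1. Keap1, which holds Nrf2 for degradation, was at 15.8 TPM in replicate 2 against 15.9 TPM in replicate 1. Of 13 partners and further targets of Nrf2, 12 were detected, with a median log2 ratio of 0.13. The ferritin light chain Ftl1 was at 586 TPM in replicate 2 against 298 TPM in replicate 1. Its log2 ratio of 1.22 passed 2-fold as higher with TMM, but was 0.99 with total counts and 0.86 with spike-ins. The heavy chain Fth1 was at 972 TPM in replicate 2 against 890 TPM in replicate 1. Slc7a11, the cystine importer, was the 1 gene lower, with 9 counts in replicate 2 and 48 counts in replicate 1. Of all tested genes 10.2% were called higher and 3.93% lower with TMM.

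The core of the antioxidant response element, TGACNNNGC on either strand, was searched in RefSeq promoter windows of GRCm38.p6, 250 bases before to 50 bases after each start. Of the 35 genes of the 41 with a window, 9 held it (25.71%), against 13.99% of all 27025 genes and 12.39% of all 32851 windows. The 9 were G6pdx, Gclm, Me1, Nfe2l2, Pgd, Prdx1, Sod1, Srxn1 and Txnrd1. With TGAGNNNGC added, which was chosen after the data were seen, 13 of 35 (37.1%) held either core, against 30.8% of genes and 27.8% of windows. A match is a description of the letters, not a bound site. Bases outside the windows were not searched, so a gene without a match here may hold the core elsewhere. Gclc, which differed 2-fold between the libraries, has no window. Of 9 genes that differed 2-fold between the libraries and have a window, Gclm and Srxn1 held either core, and they differed in opposite directions. The 250 bases before the start of these 2 genes are shown for that reason, 5′ to 3′ on the coding strand, with matches to either core in capitals.
Gclm, chr3:122245307-122245556, plus strand: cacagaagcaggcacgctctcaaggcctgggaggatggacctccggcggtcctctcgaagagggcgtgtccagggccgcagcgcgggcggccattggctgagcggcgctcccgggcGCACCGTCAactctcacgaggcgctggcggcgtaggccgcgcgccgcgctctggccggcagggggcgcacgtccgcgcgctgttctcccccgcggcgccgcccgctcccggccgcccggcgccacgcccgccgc
Srxn1, chr2:152105274-152105523, plus strand: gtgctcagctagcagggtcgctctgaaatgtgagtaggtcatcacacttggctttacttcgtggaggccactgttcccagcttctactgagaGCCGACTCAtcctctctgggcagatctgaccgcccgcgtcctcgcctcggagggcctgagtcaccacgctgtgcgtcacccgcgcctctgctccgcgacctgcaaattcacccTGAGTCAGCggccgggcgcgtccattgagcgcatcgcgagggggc
In Gclm the match starts 134 bases before the start of the gene. In Srxn1 the matches shown start 45 and 158 bases before it, both of the added core, and its TGACNNNGC match lies after the start and is not shown.

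Mitochondrial genes were then set against cytosolic ones within each library, a ratio that does not depend on library scaling. The 9 mitochondrial genes summed to 719 TPM and the 21 cytosolic genes to 3005 TPM in replicate 2, and to 856 TPM and 2617 TPM in replicate 1. The log2 ratio of the sums, mitochondrial over cytosolic, was -2.06 in replicate 2 and -1.61 in replicate 1, with a mean of -1.84 ± 0.32 (SD, n = 2). The sums cover 9 genes against 21, and equal levels per gene would by themselves give -1.22. Per gene, in a calculation added after the data were seen, the mean level was 79.9 TPM for mitochondrial and 143 TPM for cytosolic genes in replicate 2, and 95.1 TPM for mitochondrial and 125 TPM for cytosolic genes in replicate 1. That is a log2 ratio of -0.84 in replicate 2 and -0.39 in replicate 1, with a mean of -0.62 ± 0.32 (SD, n = 2). Of these genes, 6 were marked as known from more than 1 compartment (Sod1, Gpx1, Gpx4, Prdx5, Gsr and Idh1). Without these 6 the ratio per gene was -0.31 in replicate 2 and 0.07 in replicate 1, so no order held in both libraries. Srxn1, described above as restoring the mitochondrial Prdx3, was not marked and stayed with the cytosolic genes. The medians lay closer: 66.7 TPM for mitochondrial and 83.8 TPM for cytosolic genes in replicate 2, and 70.9 TPM for mitochondrial and 93.5 TPM for cytosolic genes in replicate 1. Between the libraries, 0 of the 9 mitochondrial genes differed 2-fold, with a median log2 ratio of -0.13. Of the 21 cytosolic genes 6 were called higher and 1 (Srxn1) lower in replicate 2, with a median of 0.35. Of all tested genes 10.2% were called higher and 3.93% lower, and the difference between the compartments was not tested.

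Mitochondrial and cytosolic genes of the same family or role were compared in 10 pairs. The mitochondrial gene was lower in both libraries in 6 pairs and higher in both in 3. The malic enzymes differed most, with Me3 over Me1 at -5.41 in replicate 2 and -5.56 in replicate 1 (log2), so that Me1 was 42.6-fold higher in replicate 2 and 47.2-fold higher in replicate 1. Sod2 over Sod1 stood at -1.84 in replicate 2 and -1.44 in replicate 1, and Idh2 over Idh1 at -1.01 in replicate 2 and -0.91 in replicate 1. In each of these the cytosolic enzyme had the higher level by more than the spread between libraries.

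The thioredoxin reductases were nearly even: Txnrd2 over Txnrd1 averaged -0.31 ± 0.005 (log2, SD, n = 2). Among NADPH sources that are not paralogs, Nnt over G6pdx was at -0.32 in replicate 2 and -0.53 in replicate 1, and Nnt over Pgd at -1.71 in replicate 2 and -1.50 in replicate 1. The reverse order held for the thioredoxins and for the pair of glutaredoxins. Txn2 over Txn1 was at 0.27 in replicate 2 and 0.87 in replicate 1. Glrx5 over Glrx was at 1.47 in replicate 2 and 2.92 in replicate 1, a pair that holds Glrx with its 2.32-fold difference. These glutaredoxins share a family rather than a reaction, as Glrx5 serves iron-sulfur cluster assembly. Prdx3 over Prdx2 was at 0.23 in replicate 2 and 0.22 in replicate 1, but at -0.63 in both libraries in the second of the authors' quantifications, so their order depended on the quantification. Prdx3 over Prdx1 had opposite signs, -0.98 in replicate 2 and 0.28 in replicate 1, but in the second quantification it was below 0 in both, at -1.35 in replicate 2 and -0.09 in replicate 1. That quantification put 8 pairs below 0 and 2 above 0 in both libraries.

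**Figure D5:**
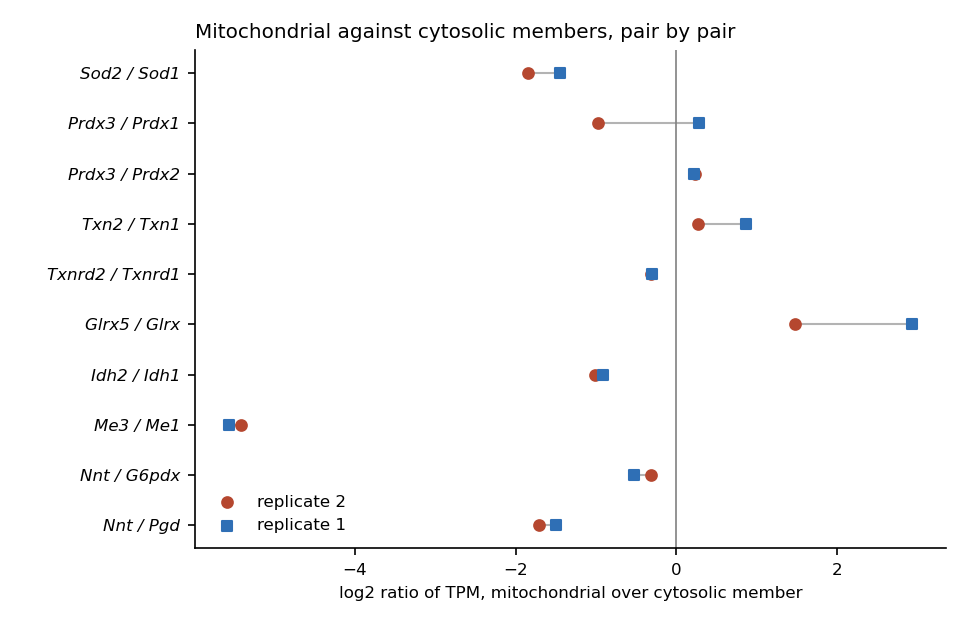
Log2 ratio of TPM, mitochondrial over cytosolic gene, for 10 pairs in replicate 2 (circles) and replicate 1 (squares). Me3 over Me1 lies far below 0 in both libraries, Glrx5 over Glrx above 0 in both, and Prdx3 over Prdx1 on opposite sides.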

How the data were processed

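Total RNA of 2 libraries of 1 group was analysed. The authors used mm10 and annotation M21, with one quantification from a transcriptome alignment and a second from reads and an index, per the notes deposited beside the tables. Program names are not given in the sources used for this work. The authors' files hold expected counts and TPM per gene and the percent of a gene's TPM on each transcript, per the file headers. Replicate 2 held 34835147 and replicate 1 held 34987819 counts on annotated genes, and spike-ins, which stayed out of library sizes, 0.915% and 0.839% of counts.

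The deposited TPM of the first quantification covers all listed sequences, so abundant RNAs lower it for other genes. The deposited expected counts, rounded to integers, were scaled by TMM factors (0.923 for replicate 2, 1.08 for replicate 1) from edgeR 4.0.16. DESeq2 1.42.0 gave alternative size factors. Genes with at least 10 counts in total were compared, a call was a 2-fold ratio, and intervals are 95% exact Clopper-Pearson. The ratio step was tested on simulated data. Values were computed in Python 3.11.15 and R 4.3.3. Counting could not be checked for use of strand.

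The 41 genes and all lists were chosen with earlier results of these data known. Values of both libraries are given for the most abundant genes of each role, every gene with a 2-fold difference and every gene of a pair, and for the 2 most abundant genes of the other lists. Genes named beside these were chosen after their values were seen.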

Additional observations from a re-analysis of the deposited data

How the results depend on the processing

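No paired analysis was possible because there is 1 group and no second group to pair with. Detection required both libraries, so leaving 1 out could not lose any of the 41 genes. At 5 TPM 39 were detected. For the values below, leaving 1 library out gives back the value of the other. The share of TPM of the 41 genes was 0.531% in replicate 2 alone and 0.407% in replicate 1 alone. Its mean moved from 0.469% to 0.886% in the second quantification and to 1.37% of nuclear protein-coding TPM (cause not tested). Nuclear protein-coding genes took up 62.6% of replicate 2 TPM and 60.8% of replicate 1 TPM in the second quantification, and 35.5% of replicate 2 TPM and 32.8% of replicate 1 TPM in the first. The mitochondrial over cytosolic ratio, with a mean of -1.84, was -2.06 in replicate 2 alone and -1.61 in replicate 1 alone. It was -1.12 without the genes marked as of more than 1 compartment and -0.36 by medians of log2(TPM + 1). It was -1.94 in the second quantification, -1.79 by summed counts, and -1.99 without Prdx3 and Sod1. As a mean per gene it was -0.62, and -0.12 without the genes so marked, both added after the data were seen. The median log2 ratio of the 41 genes, 0.16, was -0.074 under total counts and -0.2 under spike-in totals. The signs of 8 genes changed with total counts (Sod2, Gpx4, Gss, Idh2, Pgd, Hmox1, Hmox2 and Selenow) and of 12 with spike-ins, which add Gpx7, Txn1, Idh1 and Keap1. Genes at least 2-fold higher numbered 9, or 7 with total counts or spike-ins and 8 in the second quantification, where Nqo1 was at 0.998, and Srxn1 was lower throughout. Prdx3 over Prdx2 was reversed in the second quantification, from 0.23 to -0.63; the cause was not tested. The counting intervals of 5 of the 41 ratios include 0, those of Gpx4, Gpx7, Me3, Hmox1 and Selenow. Low depth is not common to them, as Gpx4 had 6682 counts in replicate 2 and 7808 in replicate 1. The interval of Nqo1 includes ratios under 2-fold. With 1 library a side, the spread between animals is unknown.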

Other observations

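Transcript use within the 41 genes was nearly the same in both libraries but differed between the authors' quantifications. Of 42 gene identifiers, 39 had the same leading transcript in both libraries in the first quantification and 42 in the second, while 37 had the same one in both quantifications. For 25 identifiers the leading transcript held at least 80% of the gene's TPM in both libraries, and 6 have a single transcript. The 5 whose leading transcript differed were Gpx1, Prdx1, Prdx5, Gclm and Idh1, named after their values were seen. Idh1-201 held 84.1% of Idh1 TPM in replicate 2 and 83.0% in replicate 1 in the first quantification, but 0.612% in replicate 2 and 4.63% in replicate 1 in the second, where another Idh1 transcript led with 71.1% in replicate 2 and 66.5% in replicate 1. Prdx1-205, a transcript of 611 bases, held 58.4% in replicate 2 and 54.5% in replicate 1 in the first and 0% in the second. For Gpx1 a transcript of 653 bases led the first quantification with 54.2% in replicate 2 and 51.0% in replicate 1, while Gpx1-201, whose selenocysteine codon is shown in the report, led the second with 62.3% in replicate 2 and 61.1% in replicate 1. The cause of these differences was not tested.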
